A study of Mus musculus with 12 samples.

Results

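Collagens are the triple-helical proteins that give the matrix around cells its strength. The genes described here are the 43 protein-coding genes of the mouse annotation whose symbols have the form of a collagen chain (*Col*, a number, *a*, a number), with *Col7a1* left aside, out of 26409 genes listed for the hippocampus of *Dek* knockout and wild-type mice. Each collagen molecule is wound from 3 chains, which may come from the same gene or from different ones. Fibrillar collagens (11 of the genes) pack into banded fibers. Basement membrane collagens (6), all chains of type IV, form the sheet under endothelium and epithelium. FACIT collagens (9) have interrupted helices and sit on the surface of fibers. The other 17 are the beaded filament chains of type VI (6), the network formers of types VIII and X (3), the multiplexins of types XV and XVIII (2), membrane-spanning chains (4) and 2 chains outside these classes. In the brain most collagen lies in the meninges, the choroid plexus and the walls of vessels, while some chains, such as the membrane-spanning *Col25a1*, are made by neurons.

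Bulk RNA was sequenced from the hippocampus of 12 C57Bl/6 mice aged 6 to 12 months, 3 of each sex and genotype, after behavioral testing. The knockout (*Dek* cKO) is constitutive: an allele with loxP sites around exons 3 and 4 of *Dek* was recombined in the germline by CMV-Cre, the Cre was bred out, and heterozygotes were crossed. WT mice are the controls, and the question put to the collagens is how the loss of this chromatin protein in every tissue bears on their transcripts in 6 *Dek* cKO against 6 WT mice. Levels are given in TPM, the unit of the values that the authors deposited, in which transcripts are scaled to a common total per library and corrected for transcript length. Reads behind a value are not known, so no counting error is given.

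*Dek* itself, read as a check of the genotype labels, was at 44.2 to 51.9 TPM in the 6 WT libraries and 5.55 to 9.25 TPM in the 6 *Dek* cKO libraries. The tissue label was checked on 13 markers of hippocampal principal neurons, of which 13 were detected in all libraries, the most abundant being *Neurod6* at 142 TPM. The sex labels did not hold in 2 libraries. The Y-linked gene *Eif2s3y* stood at 72.4, 85.3 and 92.0 TPM in male WT and at 0.993, 0.241 and 0.209 TPM in female WT, but at 72.7 TPM in the library labelled female *Dek* cKO 3 and at 0.111 TPM in the one labelled male *Dek* cKO 1. Groups below follow the labels, and counts are also given without these 2 libraries. The female WT group has library names in C57 and every other group names in CMV, so a difference between these series of names and one between female WT and the other groups cannot be told apart. Male *Dek* cKO 3 stood apart in genes of other cells and of the matrix, chosen after their values were seen. It held 1267 TPM of the astrocyte filament gene *Gfap* (208 to 437 TPM in the other libraries), 529 TPM of the neuropeptide gene *Npy* (108 to 141 TPM), 39.2 TPM of the protease inhibitor gene *Timp1* (2.05 to 3.72 TPM) and 3.37 TPM of the lysyl oxidase gene *Lox* (0.123 to 0.403 TPM).

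Collagen transcripts made up a small part of the hippocampal RNA. Summed over the 43 genes, the level ran from 240 to 364 TPM per library (median 292), which was 0.0289% to 0.0438% of the listed TPM. The mean was 269 ± 23.9 TPM (SD, n = 6) in WT and 319 ± 30.9 TPM (SD, n = 6) in *Dek* cKO libraries. By class, FACIT collagens summed to 67.9 ± 5.91 TPM in WT and 85.8 ± 20.8 TPM in *Dek* cKO (SD, n = 6 each). Fibrillar collagens summed to 47.9 ± 6.66 and 61.9 ± 8.35 TPM, basement membrane collagens to 48.0 ± 6.27 and 53.7 ± 6.35 TPM, and the others to 105 ± 16.1 and 118 ± 15.4 TPM, in the same order. These sums take in high single libraries, for which the next genes are named: *Col9a3* (64.5 TPM in male *Dek* cKO 1), *Col16a1* and *Col27a1* (41.2 and 27.8 TPM in male *Dek* cKO 3). In WT and *Dek* cKO the means were 21.2 and 29.4 TPM for *Col9a3*, 15.2 and 22.2 for *Col16a1*, and 3.38 and 7.73 for *Col27a1*. The medians were 22.7 and 20.5, 15.3 and 19.5, and 3.27 and 3.68 TPM. Sums without these values were not computed. The 4 most abundant genes carried 39.2% of the sum over the 43 genes. They were *Col6a1*, the first chain of the beaded filament (mean 37.5 TPM), *Col4a2* of the vascular basement membrane (31.8 TPM), the FACIT chain *Col9a3* (25.3 TPM) and *Col25a1* (20.8 TPM). *Col1a1* and *Col1a2*, the chains of type I collagen that dominate skin and bone, averaged only 3.29 and 4.88 TPM here.

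Of the 43 genes, 10 had a mean of at least 10 TPM, 22 lay between 1 and 10 TPM, 9 between 0.1 and 1 TPM, and 2 below. Those 2, the growth plate collagen *Col10a1* (mean 0.0627 TPM) and the filament chain *Col6a5* (0.0356 TPM), were listed at 0 in 3 and 8 libraries and were not tested, which leaves 41 genes. Variation among libraries differed widely between genes. In 10 genes the highest library held at least 5 times the level of the lowest, with *Col17a1* (56.6 times), a hemidesmosome protein of epithelia, *Col24a1* (22.1 times) and the network chain *Col8a1* (12.6 times) at the top. The steadiest were *Col5a2* (1.49 times), *Col25a1* (1.52 times) and *Col4a2* (1.53 times). These 6 were chosen after their values were seen.

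With both sexes together, the collagens leaned toward higher levels in *Dek* cKO, but none passed the test. The limma fit on log2(TPM + 0.1) called 0 of 41 (call: fold over 1.2 and adjusted p under 0.05), where 0.148% of the 18197 genes tested were called. At an unadjusted p under 0.05, 6 of 41 were higher in *Dek* cKO, beside 4.84% of all genes, and 0 of 41 were lower, beside 1.80% of all genes. In 0 of 41 did all 6 *Dek* cKO values lie above all 6 WT values, as they did for 0.572% of all genes. The log2 fold change was above 0 in 31 of 41 collagens (75.6%) and in 55.8% of all genes, with medians of 0.17 and 0.02. Leaving out female WT 1 or male WT 1 brought the 6 down to 3 (*Col20a1*, *Col11a2* and *Col4a5* both times), beside 5.96% and 6.10% of all genes. Without the 2 libraries of conflicting sex 26 of 41 lay above 0 (median 0.09), and 3 collagens reached an unadjusted p under 0.05, where 7.40% of all genes did, and they were *Col20a1* and *Col16a1*, higher, and *Col25a1*, lower. Without male *Dek* cKO 3 the count was again 6, beside 7.14% of all genes, with *Col2a1* in place of *Col16a1*. Over leaving out each library once, from 26 of 41 (without male *Dek* cKO 1) to 36 of 41 (without male *Dek* cKO 3) lay above 0, and the median ran from 0.10 (without female *Dek* cKO 2) to 0.26 (without male *Dek* cKO 2). In bulk tissue, fewer cells of a type and less RNA per cell cannot be told apart.

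**Figure D1:**
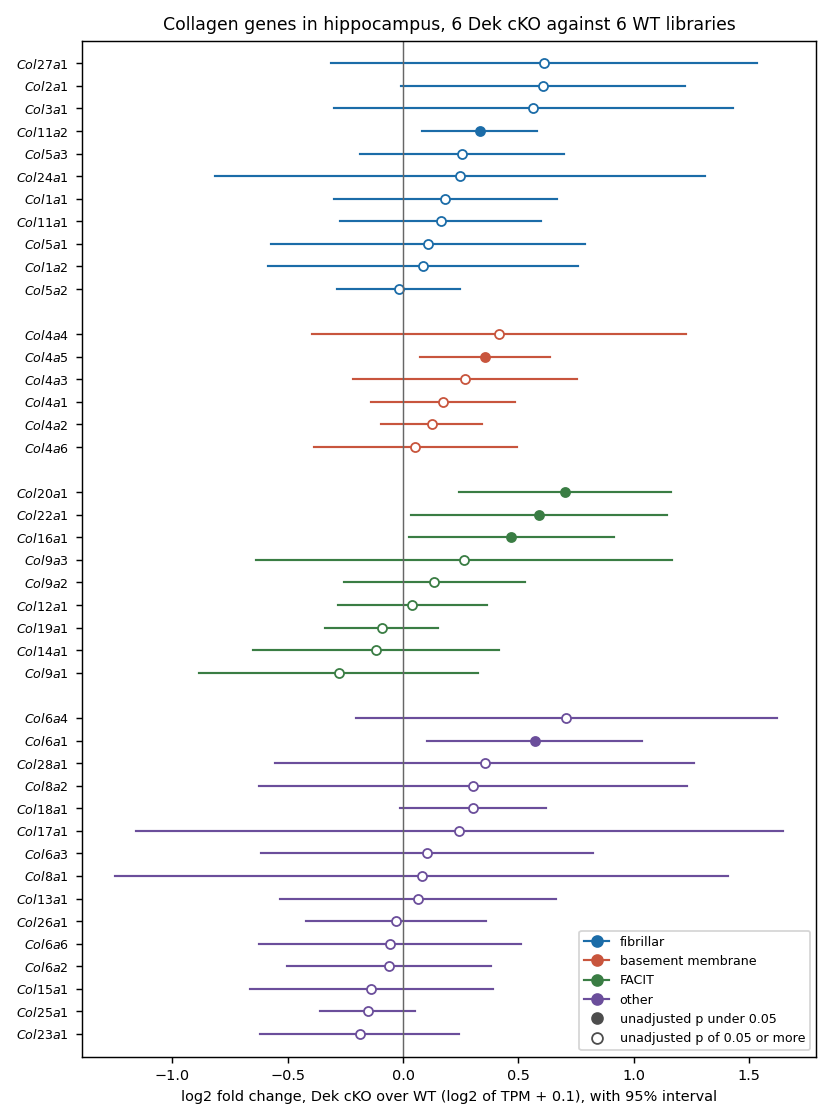
Log2 fold change of each of the 41 tested collagen genes in 6 *Dek* cKO against 6 WT libraries (horizontal axis, log2 of TPM + 0.1), sorted within class, with bars for the 95% confidence interval and filled points for an unadjusted p under 0.05. Most points lie to the right of 0, 6 intervals lie wholly above it, and none lies wholly below it.

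Among the fibrillar collagens, 10 of 11 had a log2 fold change above 0 (median 0.25). Without the 2 libraries of conflicting sex 9 of 11 did (median 0.27). The most abundant of them, *Col11a2*, pairs with *Col11a1* in thin fibers of cartilage and was at 11.5 TPM in the lowest, 12.7 TPM in the median and 14.3 TPM in the highest WT library, and at 12.2, 16.5 and 20.0 TPM in *Dek* cKO. The labelled females and male *Dek* cKO 1 were above all WT libraries, whereas male *Dek* cKO 2 and 3 lay among them. Its log2 fold change was 0.33 (SE 0.12, n = 6 each, limma adjusted p = 0.585), with 5 of 6 *Dek* cKO libraries above the WT median. The type I chains stood at log2 fold changes of 0.18 (*Col1a1*) and 0.09 (*Col1a2*), and of -0.00 and -0.08 without male *Dek* cKO 2. Larger ones were those of *Col27a1* (0.61), *Col2a1* (0.61), the cartilage collagen, and *Col3a1* (0.56), which forms fibers in soft tissue and vessel walls, with limma adjusted p = 0.874, 0.762 and 0.879. The value of *Col27a1* rested on male *Dek* cKO 3, at 27.8 TPM against 3.01 to 4.40 TPM in the other 11 libraries, and was 0.13 without it. That of *Col3a1* ran from 0.35 (without female WT 1) to 0.77 (without female WT 3) on leaving out a library. That of *Col2a1* ran from 0.51 (without female *Dek* cKO 2) to 0.88 (without male *Dek* cKO 3). Over all alternatives the limma adjusted p of *Col2a1* ranged from 0.0947 to 0.989. These members other than *Col11a2* were chosen after their values were seen.

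Basement membrane collagens lay above 0 in 6 of 6 genes (median 0.22), and this median was 0.12 without the 2 libraries of conflicting sex. *Col4a5*, a chain that replaces part of the common type IV sheet in kidney glomerulus and inner ear, was at 1.83, 2.37 and 2.58 TPM in the lowest, median and highest WT library and at 2.56, 2.85 and 3.65 TPM in *Dek* cKO. The groups overlapped only where the highest WT value passed the lowest *Dek* cKO value, that of female *Dek* cKO 1. The log2 fold change was 0.36 (SE 0.13, n = 6 each, limma adjusted p = 0.618), with 6 of 6 *Dek* cKO libraries above the WT median. The most abundant of the class, *Col4a2*, forms the common sheet together with *Col4a1* and was at 24.4, 30.0 and 37.4 TPM in WT and 26.5, 34.1 and 36.1 TPM in *Dek* cKO. Its groups overlapped throughout, with a log2 fold change of 0.12 (SE 0.10, n = 6 each, limma adjusted p = 0.904), with 5 of 6 *Dek* cKO libraries above the WT median. The log2 fold change was 0.06 without male WT 1 and 0.19 without male *Dek* cKO 2.

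The FACIT class held 3 of the 6 genes at an unadjusted p under 0.05, with 6 of 9 above 0 (median 0.14). Without the 2 libraries of conflicting sex 5 of 9 lay above 0 (median 0.14). *Col20a1*, a little-studied chain, was at 2.53, 3.77 and 5.46 TPM in the lowest, median and highest WT library and at 3.99, 6.34 and 8.44 TPM in *Dek* cKO. Female *Dek* cKO 1 and male *Dek* cKO 3 were the highest, and female *Dek* cKO 3 and male *Dek* cKO 2 lay within the WT range. The log2 fold change of 0.70 was the largest of the 6 (SE 0.21, n = 6 each, limma adjusted p = 0.454), with 6 of 6 *Dek* cKO libraries above the WT median. *Col22a1*, found where muscle meets tendon, was at 0.330, 0.461 and 0.885 TPM in WT and at 0.449, 0.920 and 1.00 TPM in *Dek* cKO. In this gene 5 of 6 *Dek* cKO libraries were above the WT median and male *Dek* cKO 3 was below it, for a log2 fold change of 0.59 (SE 0.26, n = 6 each, limma adjusted p = 0.714). With 0.5 TPM added before the log2 transform it was 0.38, and with 1 TPM added 0.26.

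*Col16a1*, which links fibers to neighboring matrix, was at 12.1, 15.3 and 18.4 TPM in the lowest, median and highest WT library and at 14.7, 19.5 and 41.2 TPM in *Dek* cKO. Male *Dek* cKO 3 alone held the 41.2 TPM, and the other *Dek* cKO libraries reached at most 22.4 TPM. This is the library with the high *Gfap*, *Npy*, *Timp1* and *Lox*, whose part in the value was not tested. The log2 fold change was 0.47 (SE 0.21, n = 6 each, limma adjusted p = 0.718), with 5 of 6 *Dek* cKO libraries above the WT median, and 0.27 without male *Dek* cKO 3. *Col9a3*, a chain of the type IX collagen that coats cartilage fibers, was the most abundant FACIT gene at 11.6, 22.7 and 31.6 TPM in WT and 9.82, 20.5 and 64.5 TPM in *Dek* cKO. Its *Dek* cKO libraries spread on both sides of WT, with a log2 fold change of 0.26 (SE 0.42, n = 6 each, limma adjusted p = 0.960, 3 of 6 *Dek* cKO libraries above the WT median) that became -0.02 without male *Dek* cKO 1.

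Of the remaining classes, 9 of 15 tested genes lay above 0 (median 0.08), and this median was -0.02 without the 2 libraries of conflicting sex. *Col6a1*, a chain present in most type VI filaments, was at 19.0, 27.7 and 44.6 TPM in the lowest, median and highest WT library and at 32.1, 42.0 and 61.8 TPM in *Dek* cKO. Female *Dek* cKO 3 was the highest, and female WT 2, female WT 3 and male WT 2 lay within the *Dek* cKO range. The log2 fold change was 0.57 (SE 0.22, n = 6 each, limma adjusted p = 0.628), with 6 of 6 *Dek* cKO libraries above the WT median. Its usual partners did not share this value, with log2 fold changes of -0.06 for *Col6a2* and 0.10 for *Col6a3* (limma adjusted p = 0.989 and 0.988), and neither kept its direction over leaving out each library once (0.09 without male *Dek* cKO 3 and -0.09 without male WT 2). *Col6a4*, another type VI chain, had 0.71 (limma adjusted p = 0.850), the largest of all tested collagens, and 0.41 without male WT 1. *Col18a1*, the vascular multiplexin that is cleaved to endostatin, had 0.30 (limma adjusted p = 0.774). These partners, *Col6a4* and *Col18a1* were chosen after their values were seen.

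The medians of all 4 classes stayed above 0 under median ratio rescaling (0.23 fibrillar, 0.21 basement membrane, 0.12 FACIT, 0.07 other) and quantile normalization (0.17, 0.18, 0.10 and 0.03). Without the 3 female WT libraries named C57, they were 0.40, 0.28, 0.02 and 0.05. In that fit of 6 *Dek* cKO against 3 male WT libraries, *Col20a1*, *Col6a1* and *Col22a1* kept an unadjusted p under 0.05 by limma. *Col6a4* joined them, at a log2 fold change of 1.51. *Col11a2*, *Col4a5* and *Col16a1* did not keep it, at log2 fold changes of 0.34, 0.37 and 0.44. Over all alternatives the adjusted p of *Col20a1* ranged from 0.201 to 0.944 and that of *Col11a2* from 0.283 to 0.988.

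**Figure D2:**
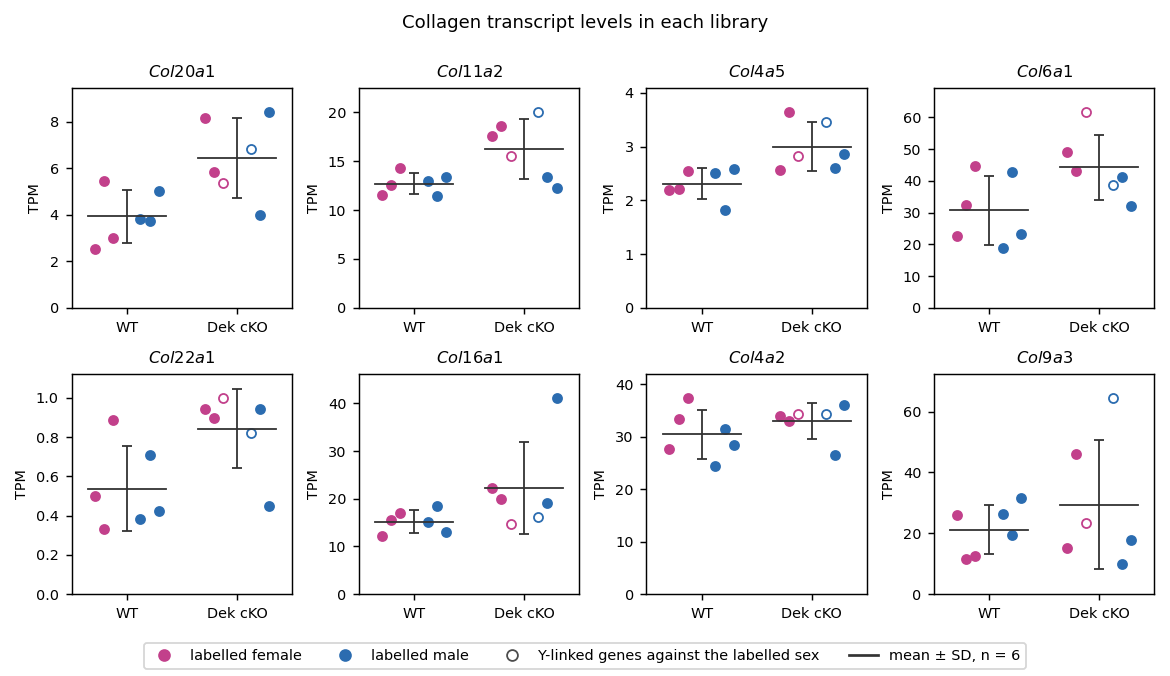
TPM (vertical axis) of the 6 collagen genes at an unadjusted p under 0.05 and of *Col4a2* and *Col9a3* in each library, by genotype, with a line for the mean and bars for the SD of 6 libraries. Open points mark the 2 libraries whose Y-linked genes went against the labelled sex, and in all 8 panels the WT and *Dek* cKO ranges overlap.

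Within each labelled sex the comparison asks whether the genotypes differ in females and in males. All female WT libraries have names in C57 and all female *Dek* cKO libraries names in CMV. In females, genotype and series of names therefore cannot be told apart, and the interaction below takes in the same comparison. In females 3 of 41 had an unadjusted p under 0.05 (5.79% of all genes), all higher in *Dek* cKO. These were *Col20a1* (log2 fold change 0.85, limma adjusted p = 0.843), *Col11a2* (0.43, adjusted p = 0.845) and *Col6a1* (0.66, adjusted p = 0.852). The count was 0 without female *Dek* cKO 1, 1 without female WT 2 and 6 without female *Dek* cKO 3. In males 3 of 41 did (5.45% of all genes), again all higher: *Col6a4* (2.83-fold, limma adjusted p = 0.828), *Col3a1* (log2 fold change 1.38, adjusted p = 0.880) and *Col18a1* (0.45, adjusted p = 0.880). That count was 1 without male WT 3, 5 without male WT 2, 9 without male *Dek* cKO 2 and 6 without male *Dek* cKO 3. For both sexes the share of all genes in the fits that left out a library is not given here. Those counts therefore cannot be set beside it.

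The difference between the sexes was tested as an interaction, in which 4 of 41 collagens had an unadjusted p under 0.05 (4.23% of all genes). *Col6a4*, a type VI chain, was at 0.469, 0.979 and 1.16 TPM in male WT and 3.30, 2.50 and 1.88 TPM in male *Dek* cKO, against 2.03, 2.88 and 3.37 TPM in female WT and 4.48, 2.89 and 1.25 TPM in female *Dek* cKO. Male WT libraries were the lowest of all 12, and the male *Dek* cKO values lay in the range of the females. Its interaction (female minus male log2 fold change) was -1.59 (SE 0.62, limma adjusted p = 0.966). *Col3a1* was at 0.704, 0.771 and 0.402 TPM in male WT and 1.18, 2.01 and 2.22 TPM in male *Dek* cKO, against 0.298, 1.25 and 1.59 TPM in female WT and 0.705, 0.666 and 0.763 TPM in female *Dek* cKO. All male *Dek* cKO libraries exceeded the male WT ones, while the female groups overlapped, for an interaction of -1.64 (SE 0.69, limma adjusted p = 0.966). The same sign was seen in *Col1a2* (-1.28) and *Col5a2* (-0.50), both with a limma adjusted p of 0.966. Markers of meningeal fibroblasts also leaned opposite ways in the labelled sexes, counted with both libraries of conflicting sex. Their median log2 fold change was -0.58 in females, with 1 of 27 above 0, and 0.42 in males, with 24 of 27 above 0, and 4 of 27 had an unadjusted interaction p under 0.05 by limma. Markers of blood lay above 0 in 0 of 6 in females (median -0.48) and 6 of 6 in males (0.25), with 2 of 6 at an unadjusted interaction p under 0.05 by limma, those of choroid plexus in 12 and 3 of 15 (medians 0.51 and -0.24) and those of cortex in 7 and 2 of 8 (0.40 and -0.18). Thalamus and habenula markers lay above 0 in 7 of 10 in females (median 0.34) and 4 of 10 in males (-0.08). The part of all these tissues in the collagen interactions was not tested. The count of collagens was 0 without female WT 2 or female WT 3, 1 without male WT 1, and 2 without female *Dek* cKO 1, female *Dek* cKO 2 or male WT 3. Shares of all genes in these fits are not given here.

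Each knockout group of 3 includes 1 library of conflicting sex, so these comparisons rest on them. Without both, females had 7 collagens at an unadjusted p under 0.05 (8.69% of all genes), males 4 (9.03%) and the interaction 7 (8.83%). Lower in *Dek* cKO were *Col25a1* in females (log2 fold change -0.38) and *Col19a1* in males (-0.29), and the others of the 7 and the 4 were higher. In females the smallest adjusted p belonged to *Col5a1*, a regulator of fiber width (log2 fold change 1.18, limma adjusted p = 0.166), and *Col28a1* (1.82, adjusted p = 0.172), each resting on 2 *Dek* cKO libraries. Those 2, female *Dek* cKO 1 and 2, also had the highest scores of cortex and of thalamus and habenula markers, given below. The part of these tissues in the 2 values was not tested. *Col20a1* and *Col11a2* were again among the females and *Col6a4* and *Col3a1* among the males. Of the 4 interactions, all below 0, only *Col3a1* was again among the 7 (-1.95, limma adjusted p = 0.548). The others of the 7 were all above 0, with limma adjusted p from 0.238 to 0.559. These were *Col28a1* (2.29), *Col9a3* (1.70), *Col24a1* (1.64), *Col5a1* (1.63), *Col19a1* (0.50) and *Col11a2* (0.48).

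The covariation with meningeal tissue was measured with 27 markers of meningeal fibroblasts, none of them a collagen. All 27 were tested and none was at 0 in any library, the most abundant being *Dcn*, the fiber-binding proteoglycan decorin (60.6 TPM). Summed, they stood at 204, 377 and 410 TPM in female WT, 301, 259 and 263 TPM in male WT, 151, 331 and 211 TPM in female *Dek* cKO and 395, 540 and 192 TPM in male *Dek* cKO. High and low libraries thus occurred in both genotypes. By label, the markers leaned lower in female and higher in male *Dek* cKO libraries, as given beside the interaction. The score of a library, the median over markers of the log2 value relative to the median library, ran from -0.61 in male *Dek* cKO 3 to 0.97 in male *Dek* cKO 2. Female *Dek* cKO 3 and male *Dek* cKO 1, the libraries of conflicting sex, stood at -0.41 and 0.46 and take part in these leans. It averaged 0.08 ± 0.52 in WT and 0.01 ± 0.64 in *Dek* cKO (SD, n = 6 each), a difference of -0.07 (two-sided exact permutation test over all splits, p = 0.823). With the score as a covariate, the median log2 fold change of the collagens remained 0.17.

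Type I collagen followed this score. In a limma fit with genotype and score as terms, 2 of 41 collagens had a slope at an adjusted p under 0.05, beside 0.160% of all genes, and 9 had an unadjusted p under 0.05, beside 5.06% of all genes. Slopes were above 0 in 30 of 41, with a median of 0.14 (log2 per unit of score), and the median of all genes was 0.00. *Col1a2* was at 2.93 TPM in the lowest and 3.73 TPM in the median WT library, and at 2.71, 4.53 and 8.45 TPM in the lowest, median and highest *Dek* cKO library, with the highest WT library, female WT 3, just under the last. Its highest libraries, male *Dek* cKO 2 and female WT 3, were also those with the highest scores. The slope was 0.98 (SE 0.12, limma adjusted p = 0.00313, n = 12), and Pearson's r was 0.926 (permutation p = 5e-05) with Spearman's rho of 0.881 (permutation p = 0.00024). Without the 2 libraries farthest from the median score, male *Dek* cKO 2 and female WT 3, r was 0.855, and it was 0.896 within WT and 0.970 within *Dek* cKO.

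*Col1a1* was at 2.55, 3.51 and 3.94 TPM in female WT, 2.92, 2.86 and 2.22 TPM in male WT, 2.36, 3.29 and 2.99 TPM in female *Dek* cKO and 3.83, 6.45 and 2.50 TPM in male *Dek* cKO. Male *Dek* cKO 2 was again the highest. The slope was 0.66 (SE 0.11, limma adjusted p = 0.0263, n = 12), with r of 0.878 (permutation p = 3e-05), rho of 0.853 (permutation p = 0.00064) and r of 0.839 without the same 2 libraries. Within genotypes r was 0.901 in WT and 0.950 in *Dek* cKO. Relations were computed for 41 collagens and 3 scores, 123 in all. The call of *Col1a2* was lost without female WT 3 (adjusted p = 0.0523) or male *Dek* cKO 2 (0.0562), and that of *Col1a1* without female WT 2 (0.0574), female WT 3 (0.0655), female *Dek* cKO 1 (0.0790), male *Dek* cKO 2 (0.326) or both libraries of conflicting sex (0.0915), where *Col1a2* had 0.0188. Over all alternatives the adjusted p ranged from 0.00171 to 0.381 for *Col1a2* and from 0.0136 to 1.00 for *Col1a1*.

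The other 7 at an unadjusted p under 0.05 had positive slopes as well, and were chosen after their values were seen. They were the membrane-spanning *Col13a1* (0.68), *Col23a1* (0.44) and *Col25a1* (0.22), the fibrillar *Col3a1* (0.75) and *Col5a2* (0.24), *Col6a2* (0.38) and *Col9a2* (0.33), with adjusted p from 0.471 for *Col13a1* to 0.950 for *Col3a1*, *Col6a2* and *Col9a2* by limma. *Col3a1* tracked the score within WT (r = 0.926) but less within *Dek* cKO (r = 0.277), a difference that was not tested. None of the 6 collagens higher in *Dek* cKO at an unadjusted p under 0.05 was among these 9. Of the 9, *Col3a1*, *Col1a1*, *Col9a2*, *Col1a2* and *Col13a1* had a positive log2 fold change in *Dek* cKO. *Col5a2*, *Col6a2*, *Col23a1* and *Col25a1* had a negative one.

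**Figure D3:**
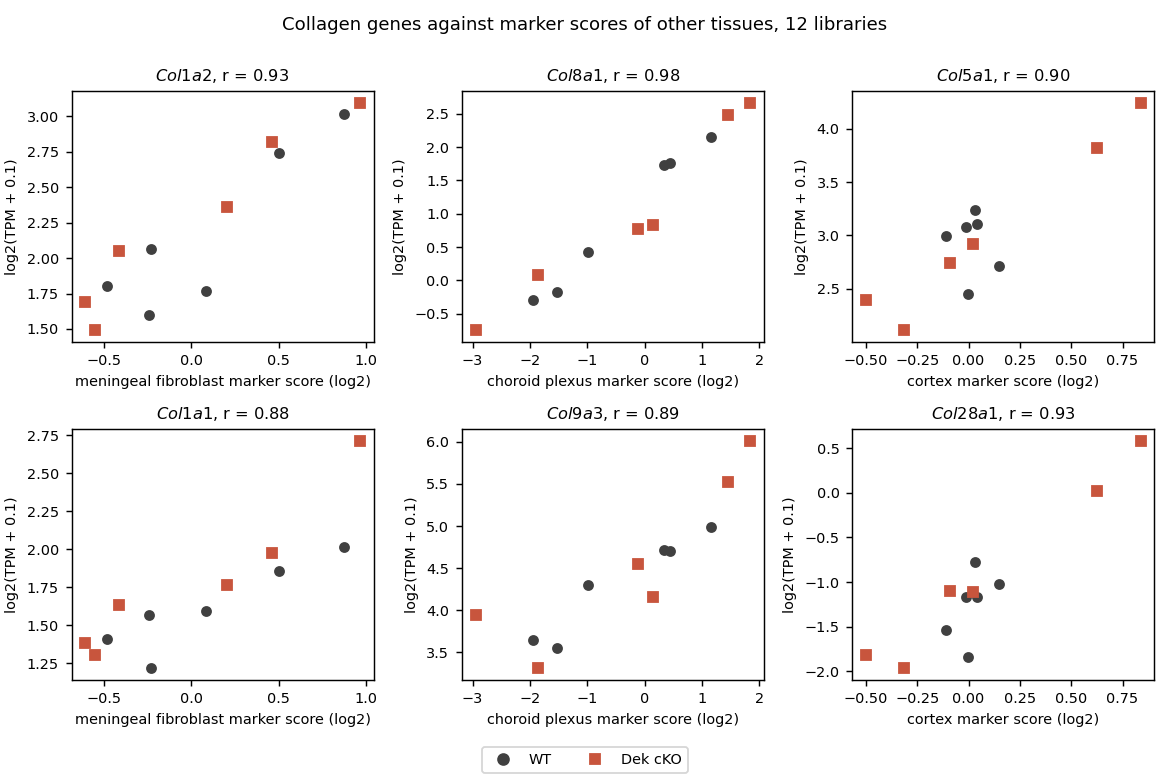
Log2(TPM + 0.1) of 6 collagen genes (vertical axes) against the meningeal, choroid plexus and cortex marker scores (horizontal axes, log2) in 12 libraries, with circles for WT and squares for *Dek* cKO. *Col8a1* climbs along the whole score in both genotypes, the upper end of *Col1a2* in WT is female WT 2 and 3, and the upper ends of *Col5a1* and *Col28a1* are 2 female *Dek* cKO libraries.

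Scores for choroid plexus and for cortex, tissues next to the hippocampus in dissection, were put in the same fit after the data were seen. The 15 choroid plexus markers were all detected in every library, led by the thyroid hormone carrier *Ttr* (1433 TPM). Summed, they stood at 1724, 133 and 98.4 TPM in female WT, 2042, 619 and 3145 TPM in male WT, 66.0, 3553 and 1176 TPM in female *Dek* cKO and 4603, 89.5 and 1430 TPM in male *Dek* cKO. Low and high libraries occurred in each group, and the score differed by 0.17 between genotypes (n = 6 each, exact permutation p = 0.857).

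Network-forming *Col8a1* followed the choroid plexus score most closely. It was at 3.29, 0.786 and 0.713 TPM in female WT, 3.23, 1.25 and 4.35 TPM in male WT, 0.496, 5.50 and 1.60 TPM in female *Dek* cKO and 6.24, 0.959 and 1.68 TPM in male *Dek* cKO. Male *Dek* cKO 1 and female *Dek* cKO 2 were highest and female *Dek* cKO 1 lowest, as for the choroid plexus markers. The slope was 0.75 (SE 0.06, limma adjusted p = 2.5e-05, n = 12) and was called without each library in turn and without both of conflicting sex (adjusted p = 0.000892). Pearson's r was 0.975 and Spearman's rho 0.993, both with a permutation p of 1e-05, the smallest these permutations can give. Without the farthest libraries, female *Dek* cKO 1 and female WT 3, r was 0.965, and it was 0.993 within WT and 0.972 within *Dek* cKO. In all, 3 of 41 collagens were called, beside 0.203% of all genes, and 5 had an unadjusted p under 0.05, beside 4.33% of all genes.

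*Col9a3* had a slope of 0.47 (SE 0.07, limma adjusted p = 0.00694, n = 12), r of 0.890 (permutation p = 9e-05), rho of 0.909 (permutation p = 0.00013) and r of 0.952 without the 2 farthest libraries. It was 0.964 within WT and 0.869 within *Dek* cKO, and the call was lost without male *Dek* cKO 1 (adjusted p = 0.0553), the library with the most choroid plexus RNA, and without both libraries of conflicting sex (0.118). *Col4a4*, a basement membrane chain at 0.222 to 1.25 TPM, had 0.40 (SE 0.07, limma adjusted p = 0.0347, n = 12), r of 0.911 (permutation p = 4e-05), rho of 0.923 (permutation p = 3e-05) and r of 0.890 without the 2 farthest. This call was kept in 4 of 12 fits that left out a library, and was lost without both libraries of conflicting sex (adjusted p = 0.256). *Col8a2*, the partner chain of *Col8a1*, missed the threshold with a slope of 0.44 (limma adjusted p = 0.128, r = 0.815 with permutation p = 0.00143, rho = 0.881 with permutation p = 0.00045), as did *Col17a1* with 0.59 (adjusted p = 0.401). Over all alternatives the adjusted p ranged from 2.4e-05 to 0.0263 for *Col8a1*, from 0.000595 to 0.367 for *Col9a3* and from 0.00242 to 1.00 for *Col4a4*.

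The 8 cortex markers, led by *Lamp5* (38.2 TPM), were detected in every library. Summed, they stood at 147, 159 and 147 TPM in female WT, 162, 157 and 159 TPM in male WT, 240, 212 and 128 TPM in female *Dek* cKO and 156, 141 and 115 TPM in male *Dek* cKO, so female *Dek* cKO 1 and 2 stood above all others. The score of thalamus and habenula markers was also highest in these 2 libraries (0.53 and 0.51, with 0.13 in the next, female WT 2) and, like the cortex score, lowest in male *Dek* cKO 3 (-0.63). The cortex score differed by 0.08 between genotypes (n = 6 each, exact permutation p = 0.703). On the cortex score 3 of 41 collagens were called, beside 1.96% of all genes, and 8 had an unadjusted p under 0.05, beside 15.8% of all genes. *Col5a1* was at 5.36 to 9.35 TPM in WT, at 18.8, 14.0 and 4.22 TPM in female *Dek* cKO and at 7.48, 6.59 and 5.14 TPM in male *Dek* cKO. Its high libraries were female *Dek* cKO 1 and 2. The slope was 1.48 (SE 0.22, limma adjusted p = 0.00598, n = 12), r was 0.899 (permutation p = 0.0003) and rho 0.727 (permutation p = 0.00969), with r of 0.634 without those 2 libraries, -0.181 within WT and 0.975 within *Dek* cKO.

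*Col28a1*, a chain linked to peripheral glia, had a slope of 1.90 (SE 0.33, limma adjusted p = 0.0129, n = 12), r of 0.932 (permutation p = 0.00012), rho of 0.818 (permutation p = 0.00202) and r of 0.715 without female *Dek* cKO 1 and 2. Within WT r was 0.531 and within *Dek* cKO 0.983. Both calls were lost without female *Dek* cKO 1, with adjusted p of 0.115 for *Col5a1* and 0.157 for *Col28a1*, and were kept without the libraries of conflicting sex (0.0227 and 0.0307). *Col19a1*, a FACIT chain made by interneurons, was called by a narrow margin (slope 0.46, SE 0.11, limma adjusted p = 0.0499, n = 12, r = 0.773 with permutation p = 0.00372, rho = 0.531 with permutation p = 0.0801) and in 1 of 12 fits that left out a library. Over all alternatives the adjusted p ranged from 0.00405 to 0.148 for *Col5a1*, from 0.00427 to 0.270 for *Col28a1* and from 0.0383 to 0.391 for *Col19a1*. What part of the collagen values comes from meninges, choroid plexus, cortex, or thalamus and habenula carried along was not tested.

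Chains of the same collagen type did not all move together across the 12 libraries. Of 12 pairs chosen after the data were seen, 10 were chains of the same type and 2 were neighbors on the genome, and 3, all of the same type, had a Pearson permutation p under 0.05 after adjustment over the pairs. *Col1a1* and *Col1a2* had r = 0.842 (permutation p = 8e-05, adjusted 0.00096) and rho = 0.818 (permutation p = 0.00185), with r of 0.791 without the 2 farthest libraries. *Col8a1* and *Col8a2* had r = 0.854 (permutation p = 0.0005, adjusted 0.003) and rho = 0.867 (permutation p = 0.00061), with 0.734 without the 2 farthest. *Col4a1* and *Col4a2* had r = 0.735 (permutation p = 0.00567, adjusted 0.0227) and rho = 0.853 (permutation p = 0.00074), with 0.720 without the 2 farthest. *Col6a1* and *Col6a2* moved together within WT (r = 0.984) and had r = 0.394 within *Dek* cKO, a difference that was not tested, with r = 0.514 overall (permutation p = 0.0877, adjusted 0.198) and rho = 0.643 (permutation p = 0.0277). The type IX chains *Col9a2* and *Col9a3* had r = -0.198 (permutation p = 0.537, adjusted 0.586) and rho = -0.280 (permutation p = 0.379).

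Position on the genome is shared by many of these genes. Within 100 kb of each other lie 8 pairs made of 15 of the 43 genes. The type IV genes come as 3 divergent pairs, with 71 bases between *Col4a4* and *Col4a3*, 1308 bases between *Col4a6* and *Col4a5*, and annotated ends of *Col4a1* and *Col4a2* that overlap by 22 bases. Another 3 pairs are type VI genes on the same strand (*Col6a2* and *Col6a1*, *Col6a6* and *Col6a5*, *Col6a5* and *Col6a4*), and 2 converge (*Col9a1* and *Col19a1*, *Col3a1* and *Col5a2*). *Col4a3* and *Col4a4*, the closest pair without overlap, had r = 0.561 (permutation p = 0.0595, adjusted 0.179) and rho = 0.573 (permutation p = 0.0559).

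Promoter sequence was read from RefSeq on build GRCm38.p6, as windows of 300 bases, 250 before and 50 after the start. Of the 43 genes 34 matched, with 37 windows, and those not matched were *Col26a1*, *Col9a3*, *Col4a3*, *Col14a1*, *Col2a1*, *Col1a1*, *Col12a1*, *Col5a2* and *Col22a1*. A GC box (GGGCGG, on either strand) was in 22 of the 37 windows (59.5%) and in 35.7% of all 32851 windows. A CCAAT box (CCAAT, either strand) was in 12 (32.4%, all windows 37.4%), and a TATA box (TATAAA, either strand) in 5 (13.5%, all windows 13.6%). A match describes the letters alone. Printed here are the bases before the starts of *Col8a1* and *Col8a2*, which moved together on different chromosomes, and the bases between *Col4a4* and *Col4a3*, which separate their starts. The *Col8a1* stretch is chr16:57754738-57754987, minus strand, 250 bases with 60.8% G or C and 4 GC boxes. The *Col8a2* stretch is chr4:126286544-126286792, plus strand, 249 bases with 69.9% G or C and 4 GC boxes, of which the last 2 overlap. The stretch between *Col4a4* and *Col4a3* is chr1:82586850-82586920, plus strand, 71 bases with 69% G or C and none of the 3 motifs. Capitals mark the GC boxes.
Col8a1: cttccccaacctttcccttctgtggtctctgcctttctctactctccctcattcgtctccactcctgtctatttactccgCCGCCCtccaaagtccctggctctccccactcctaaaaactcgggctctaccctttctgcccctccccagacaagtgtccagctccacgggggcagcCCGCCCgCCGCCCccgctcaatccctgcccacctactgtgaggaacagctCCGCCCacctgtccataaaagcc
Col8a2: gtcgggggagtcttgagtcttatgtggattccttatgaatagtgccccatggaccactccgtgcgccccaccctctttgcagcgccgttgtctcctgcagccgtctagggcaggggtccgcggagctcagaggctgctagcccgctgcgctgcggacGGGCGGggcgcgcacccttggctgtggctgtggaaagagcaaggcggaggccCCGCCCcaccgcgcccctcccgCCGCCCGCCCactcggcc
Col4a4 to Col4a3: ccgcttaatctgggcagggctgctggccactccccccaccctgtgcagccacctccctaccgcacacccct

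Genes that make, cross-link, sense and break down collagen showed no call either. Over all genes tested, 0.148% were called, 6.64% had an unadjusted p under 0.05 and 55.8% lay above 0. Of 18 genes for hydroxylation and folding, 0 were called and 0 had an unadjusted p under 0.05 by limma (14 above 0, median log2 fold change 0.04), the most abundant being the prolyl isomerase *Ppib* (151 TPM). Of 15 for export, propeptide cleavage and crosslinking, 0 were called, 1 had an unadjusted p under 0.05 by limma and 14 lay above 0 (median 0.15), the most abundant being the export receptor *Mia3* (44.1 TPM). Among them the lysyl oxidase *Loxl4* was at 0.206 ± 0.105 TPM in WT and 0.414 ± 0.119 TPM in *Dek* cKO (SD, n = 6), a log2 fold change of 0.79 (limma adjusted p = 0.618). Of 10 collagen receptors, led by *Ddr1* (49.8 TPM), 1 had an unadjusted p under 0.05 by limma and 8 lay above 0 (median 0.08). The inhibitory receptor *Lair1* was at 6.36 ± 0.557 TPM in WT and 7.74 ± 1.37 TPM in *Dek* cKO (SD, n = 6), a log2 fold change of 0.27 (limma adjusted p = 0.714). Of 9 genes for breakdown and its inhibitors, led by *Timp2* (158 TPM), 0 had an unadjusted p under 0.05 by limma and 5 lay above 0 (median 0.03).

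Matrix partners of the collagens gave 0 calls as well, with 1 gene in each list at an unadjusted p under 0.05 by limma (5.88% of 17 and 6.25% of 16, beside 6.64% of all genes). Of 17 basement membrane partners, led by *Sparc* (207 TPM), 9 lay above 0 (median 0.03), and the laminin chain *Lama3* was at 1.14 ± 0.0972 TPM in WT and 0.859 ± 0.172 TPM in *Dek* cKO (SD, n = 6), a log2 fold change of -0.38 (limma adjusted p = 0.712). Of 16 fibrillar partners, led by *Dcn*, 6 lay above 0 (median -0.13), and the thrombospondin *Thbs2* was at 2.18 ± 0.512 TPM in WT and 2.88 ± 0.469 TPM in *Dek* cKO (SD, n = 6), a log2 fold change of 0.41 (limma adjusted p = 0.675). *Dcn*, *Lum*, *Ogn* and *Fmod* of this list, and *Pcolce* of the crosslinking list, are also among the meningeal markers.

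Cell type markers gave 0 calls in 14 lists. Of the scores of all 20 lists, compared between genotypes with exact permutation tests (n = 6 each), 3 had a p under 0.05 before adjustment, and each had an adjusted p of 0.289 over the 20. They were the score of oligodendrocyte precursors (difference -0.15, exact p = 0.0152), that of interneurons (0.05, exact p = 0.0433) and that of collagen export, cleavage and crosslinking (0.16, exact p = 0.0346). Log2 fold changes lay above 0 in 8 of 8 skeletal muscle markers (median 0.26), 10 of 13 of pericytes and smooth muscle (0.12), 5 of 10 of astrocytes (0.02), 6 of 8 of cortex (0.02) and 1 of 9 of oligodendrocyte precursors (-0.09). Markers at an unadjusted p under 0.05 included *Abcc9* of pericytes and smooth muscle (log2 fold change 0.31, limma adjusted p = 0.674), *Slc1a2* of astrocytes (-0.14, adjusted p = 0.539), *Vcan* of oligodendrocyte precursors (-0.37, adjusted p = 0.407), *Fam19a1* of cortex (-0.19, adjusted p = 0.674) and *Acta1* of skeletal muscle (0.28, adjusted p = 0.628). Meningeal, choroid plexus, endothelial, oligodendrocyte, interneuron, principal neuron, thalamus and habenula, and blood lists had 0 such genes by the same limma fit, with medians of -0.10, 0.17, 0.01, -0.07, 0.06, -0.10, 0.06 and -0.10. The most abundant markers of their lists included *Slco1a4* of endothelium (45.4 TPM), *Vtn* of pericytes (65.5 TPM), *Aldoc* of astrocytes (641 TPM), *Olig1* of oligodendrocyte precursors (80.5 TPM), *Mbp* of oligodendrocytes (2182 TPM), *Cck* of interneurons (604 TPM), *Prkcd* of thalamus (25.4 TPM), *Hbb-bs* of blood (428 TPM) and *Acta1* (8.13 TPM).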

How the data were processed

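Hippocampal poly-A RNA of 12 mice was analysed from the TPM values that the authors deposited, 1 column per library. The labels name kallisto and build mm10, while the methods of the study describe other software, so which tool wrote the values is not known. Genes were matched by identifier to GENCODE M21 (25245 of 26409). Listed TPM sum to 825750 to 845553 per library. Read counts are not kept, so a count model was not used. Genes averaging 0.1 TPM or more (18197) were kept, 0.1 TPM was added before the log2 transform, and differences were tested with limma 3.58.1 in R 4.3.3 (trended prior variance, two-sided, Benjamini-Hochberg over all genes tested). Sexes and their interaction came from a fit of 4 groups on all 12 libraries. Marker scores were compared between genotypes with two-sided exact permutation tests, and correlations used 100000 permutations. Marker slopes left the markers of the score out of the share of all genes. The members and lists were chosen with earlier results of these data known. Named by rule are members at an unadjusted p under 0.05 or with groups that do not overlap, the most abundant of each class, and, in 20 gene lists, the genes called, those at an unadjusted p under 0.05 with the 2 smallest p, and the most abundant. Other members were chosen after their values were seen. Alternatives changed the pseudocount, filter, scaling, prior variance, covariates, pairing or libraries. The choroid plexus and cortex slopes and the 12 collagen pairs were added after seeing the data. The steps were tested on simulated data. Tables and plots used Python 3.11.15, numpy 2.4.6, pandas 2.3.3, scipy 1.17.1 and matplotlib 3.10.9.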

Additional observations from a re-analysis of the deposited data

Results flagged for a closer look

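In groups of 6 libraries, 1 library stood far from the others for 6 collagen genes, out of 82 groups of a genotype and a gene, where chance flags about 1 in 20 groups (4.1 here). All 6 are *Dek* cKO libraries. Male *Dek* cKO 3 was far above the others for *Col27a1* (27.77 TPM, others 3.405 to 4.398 TPM) and far below them for *Col2a1* (1.354 TPM, others 3.658 to 5.226 TPM) and *Col22a1* (0.4489 TPM, others 0.8209 to 1.00 TPM). Male *Dek* cKO 2 was far below the others for *Col4a2* (26.48 TPM, others 32.96 to 36.11 TPM) and *Col11a1* (3.183 TPM, others 6.009 to 7.895 TPM). Female *Dek* cKO 1 was far below them for *Col4a6* (0.3088 TPM, others 0.4167 to 0.4912 TPM). The causes were not tested.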

How the results depend on the processing

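No collagen passed the adjusted threshold with both sexes under any of the 24 alternatives run, and the median log2 fold change of the collagens was above 0 under each of them (0.09 to 0.26). Collagens at an unadjusted p under 0.05 with both sexes numbered 6, with 3 to 8 on leaving out a library, 3 without the libraries of conflicting sex and 5 with the replicate block. On leaving out a library, 5.67% to 7.87% of all genes had such a p. For females (3) the count was 0 to 6 on leaving out a library, 5 with 1 TPM added and 7 without the libraries of conflicting sex. For males (3) it was 1 to 9 on leaving out a library. For the interaction (4) it was 0 to 4 on leaving out a library, 2 with quantile normalization and 7 without the libraries of conflicting sex. Shares of all genes on leaving out a library are not given here for females, males or the interaction. Slopes called on the meningeal score (2) numbered 0 to 2 on leaving out a library, 0 with the replicate block and 1 without the libraries of conflicting sex. On the choroid plexus score (3), added after seeing the data, they numbered 1 to 4 on leaving out a library, 1 with the replicate block and 1 without the libraries of conflicting sex. On the cortex score (3), also added after seeing the data, they numbered 0 to 3 on leaving out a library and 0 with the replicate block. The genotype difference of the meningeal score (-0.07) reversed to 0.0868 without the C57-named libraries and ran from -0.305 to 0.0523 on leaving out a library. The log2 fold change of *Col9a3* reversed to -0.0842 without the C57-named libraries and -0.0840 without the libraries of conflicting sex, and ran from -0.0217 (without male *Dek* cKO 1) to 0.519 on leaving out a library. The causes were not tested. Libraries of the same sex and number were taken as pairs in the block, and their correlations ran from -0.0385 to 0.0445. With a mean of at least 1 TPM *Col22a1* has no value. TPM do not show how many reads lie behind genes under 1 TPM.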
